A study of Mus musculus with 6 samples.

Results

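Mitochondrial ribosomal protein genes were taken as every probe whose symbol in the array annotation begins with Mrpl or Mrps followed by a number, which gave 110 of the 25697 probes and 76 genes. Of these probes, 98 were above background in at least 1 group (on both of its arrays) and measured 71 genes. For 50 of these genes 1 probe was left, and for 21 several. The other 5 genes, Mrpl19, Mrpl21, Mrpl32, Mrps14 and Mrps36, were not well above background in any group and were not tested. No probe carried the symbols Mrpl41 or Mrpl44. Members measured under other symbols, such as Dap3, are described separately.

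Mitochondria carry their own ribosome, which translates the few messenger RNAs of the mitochondrial genome into membrane subunits of the respiratory chain and ATP synthase. Its ribosomal RNAs are mitochondrial transcripts, while all of its proteins are encoded in the nucleus, made in the cytosol and imported. Many of these proteins have a counterpart in the bacterial ribosome and the rest are specific to mitochondria. Pluripotent cells are known to rely strongly on glycolysis while still running a respiratory chain, so they too need these ribosomes.

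The measurements are of gene expression in mouse cells, on 6 Illumina bead arrays with 2 for each of 3 groups, from 500 ng of total RNA per array. The groups were piPSC, pluripotent stem cells that were induced with recombinant proteins, OG2-MEF, fibroblasts of E13.5 embryos in which the Oct4 promoter drives a green fluorescent protein gene, and ES, embryonic stem cells of the single line R1. The labels give ES and piPSC samples the same culture text, with irradiated fibroblast feeders, serum and leukemia inhibitory factor, and OG2-MEF were grown on gelatin in serum medium without feeders. They give neither the cells from which the piPSC were made nor whether ES cells or piPSC carry the transgene. The 2 arrays of a group are called biological replicates with no word on separate cultures. The p-values therefore measure only the spread between these samples, which may be technical.

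Pluripotency markers were called higher in piPSC and in ES than in OG2-MEF for 10 of 10 genes, and on each OG2-MEF array 2 of the 10 were detected. Most of these genes were thus kept through piPSC and ES alone, and could hardly have been called lower there. Of the 12 fibroblast markers 10 were tested. All 10 were called lower in piPSC and in ES, yet all 10 were above background on every array. Their summed signal lay between 83148 and 89734 on OG2-MEF arrays, between 16969 and 18528 on piPSC arrays and between 10663 and 15371 on ES arrays. Muscle markers were called lower for 4 of 5 genes in piPSC, with a summed signal of 6070 to 6509 on OG2-MEF arrays and 206 to 326 on the others. Myl1 and Actc1, which encode muscle myosin and actin, were not above background on any piPSC or ES array. Neural markers were called lower for 3 of 5, with 6203 to 6596 in OG2-MEF and 393 to 522 in the others. Of the 6 leukocyte markers 2 were tested: Laptm5 was higher in piPSC (5.24) and Adgre1 was not called (-0.23). The only endothelial marker of 5 that was tested, Tek, was at least 4.47-fold higher in piPSC. It was not above background in OG2-MEF, so it too could hardly have been called lower in piPSC. The part of feeder fibroblasts and of other cell types in the results was not tested. In RNA from a whole culture, fewer cells of a type and less RNA per cell cannot be told apart. ES replicate 2 stood apart: 46.9% of its probes were above background against 50.7% to 52.4% on the other arrays. For members, the SD of the difference between the arrays of a group on the log2 scale was 0.154 in piPSC, 0.177 in OG2-MEF and 0.486 in ES. Signals on each ES array, or results without ES replicate 2, are therefore given beside the comparisons with ES.

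Promoter windows of 5 members are shown because these genes lay at the ends of the response described below. Mrpl27 and Mrpl1 had the largest mean increase over both comparisons with fibroblasts. Mrps6 was called lower in both. Mrps17 and Mrpl14 differed least from fibroblasts among members with a window, by the larger of their differences in piPSC and in ES. Each window covers 250 bases before and 50 bases after the start of the gene in RefSeq (build GRCm38.p6), is printed 5′ to 3′ on the gene's strand, and shows in capitals any match to the motifs searched.
Mrpl27, chr11:94653541-94653840, plus strand: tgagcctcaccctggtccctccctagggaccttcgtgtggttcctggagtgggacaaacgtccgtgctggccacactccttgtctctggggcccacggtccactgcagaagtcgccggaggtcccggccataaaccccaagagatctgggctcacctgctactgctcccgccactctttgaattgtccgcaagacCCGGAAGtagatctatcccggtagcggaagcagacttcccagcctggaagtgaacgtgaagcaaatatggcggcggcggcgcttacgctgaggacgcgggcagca
Mrpl1, chr5:96209865-96210164, plus strand: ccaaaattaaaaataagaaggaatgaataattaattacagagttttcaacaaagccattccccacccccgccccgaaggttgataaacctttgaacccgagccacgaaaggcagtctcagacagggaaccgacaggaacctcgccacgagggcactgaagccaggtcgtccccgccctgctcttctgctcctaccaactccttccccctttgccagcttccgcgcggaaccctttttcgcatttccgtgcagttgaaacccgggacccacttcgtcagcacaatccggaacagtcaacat
Mrps6, chr16:92058086-92058385, plus strand: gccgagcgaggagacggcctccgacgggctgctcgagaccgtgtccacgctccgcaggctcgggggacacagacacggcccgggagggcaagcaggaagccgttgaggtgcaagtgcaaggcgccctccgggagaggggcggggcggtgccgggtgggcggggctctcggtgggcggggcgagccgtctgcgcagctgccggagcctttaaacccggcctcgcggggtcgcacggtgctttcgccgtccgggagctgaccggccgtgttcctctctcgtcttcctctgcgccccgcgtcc
Mrps17, chr5:129715247-129715546, plus strand: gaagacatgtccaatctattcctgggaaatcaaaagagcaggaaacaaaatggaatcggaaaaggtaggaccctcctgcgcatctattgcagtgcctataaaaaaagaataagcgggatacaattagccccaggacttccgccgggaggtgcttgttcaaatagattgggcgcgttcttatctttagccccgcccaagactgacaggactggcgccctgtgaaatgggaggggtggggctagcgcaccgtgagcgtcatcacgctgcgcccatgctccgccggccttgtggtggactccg
Mrpl14, chr17:45686099-45686398, plus strand: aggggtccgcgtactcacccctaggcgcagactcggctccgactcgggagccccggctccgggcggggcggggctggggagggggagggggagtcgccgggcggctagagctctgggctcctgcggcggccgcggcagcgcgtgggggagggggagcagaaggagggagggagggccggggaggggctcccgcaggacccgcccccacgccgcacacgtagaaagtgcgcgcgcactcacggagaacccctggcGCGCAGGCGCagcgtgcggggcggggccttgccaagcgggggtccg

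Motifs were searched on both strands: CCGGAAG, a core of sites of ETS factors such as Gabpa, CACGTG, the E-box of Myc, and the 10-letter consensus motifs of NRF1 and YY1. The last letters of the ETS core are the first of the YY1 consensus, so these matches may overlap. Of the 76 members, 67 had a window (3 of them several), and the windows of 27025 genes served as background. This background holds every gene with a window, also genes that were not tested here. Whether the members differ in these motifs from the other expressed genes was not tested. The ETS core was in the windows of 26 members (38.8%, against 9.93% of all genes), and in Mrpl27 it began 55 bases before the start. An NRF1 match was found for 12 members (17.9% against 5.19%), among them Mrpl14, where it began at base 5 after the start. YY1 matched 5 members (7.46% against 0.995%) and the E-box 5 (7.46% against 8.09%). At least 1 of the 4 motifs was in the windows of 40 members (59.7% against 20.9%). The windows of Mrpl1, Mrps6 and Mrps17 held none of these letters. A match is a description of letters and not of a bound factor.

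Whether induced cells and fibroblasts differed in expression of the mitochondrial ribosome was addressed by comparing piPSC with OG2-MEF. Signals were background-corrected, quantile-normalized between arrays and given on a log2 scale, so a difference is relative to the other transcripts of the same RNA. A gene was called at a limma adjusted p under 0.05, over all 10748 features, and a difference of at least 2-fold. Mitochondrial ribosomal protein genes were mostly higher in piPSC: 28 of 71 were called higher (39.4%, against 20% of all features) and 1 lower (1.41% against 21.4%). The median log2 fold change of the members was 0.89 and that of all features 0.02. By the adjusted p alone, 53 members were higher (33.6% of all features were) and 4 lower (34.5%). With the arrays scaled to the same median in place of quantile normalization, 18 members were called higher and 2 lower (15.6% and 26.7% of all features), and the medians were 0.53 for members and -0.18 for all features. In 63 members both piPSC arrays lay above both OG2-MEF arrays (45% of all features did), and in 6 both lay below (43.8%).

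In ES against OG2-MEF, 28 of 71 members were called higher (39.4%, against 25.1% of all features) and 2 lower (2.82% against 21.6%). The median log2 fold change was 0.87 for members and 0.15 for all features. By the adjusted p alone, 56 members were higher (40.1% of all features) and 4 lower (33.1%). Both ES arrays lay above both OG2-MEF arrays for 61 members (47.1% of all features) and below for 5 (38.4%). These 2 comparisons share the OG2-MEF arrays. Without ES replicate 2, the median log2 fold change was 0.85 for members and 0.12 for all features. Against the mean of the OG2-MEF arrays, ES replicate 1 alone was more than 2-fold higher for 31 members (24% of features) and lower for 1 (21.7%). ES replicate 2 alone was higher for 32 (27.2%) and lower for 5 (22.4%). The median log2 signal of the members was 10.15 on each OG2-MEF array, 10.90 and 10.99 on the piPSC arrays, and 11.05 and 11.21 on the ES arrays.

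**Figure D1:**
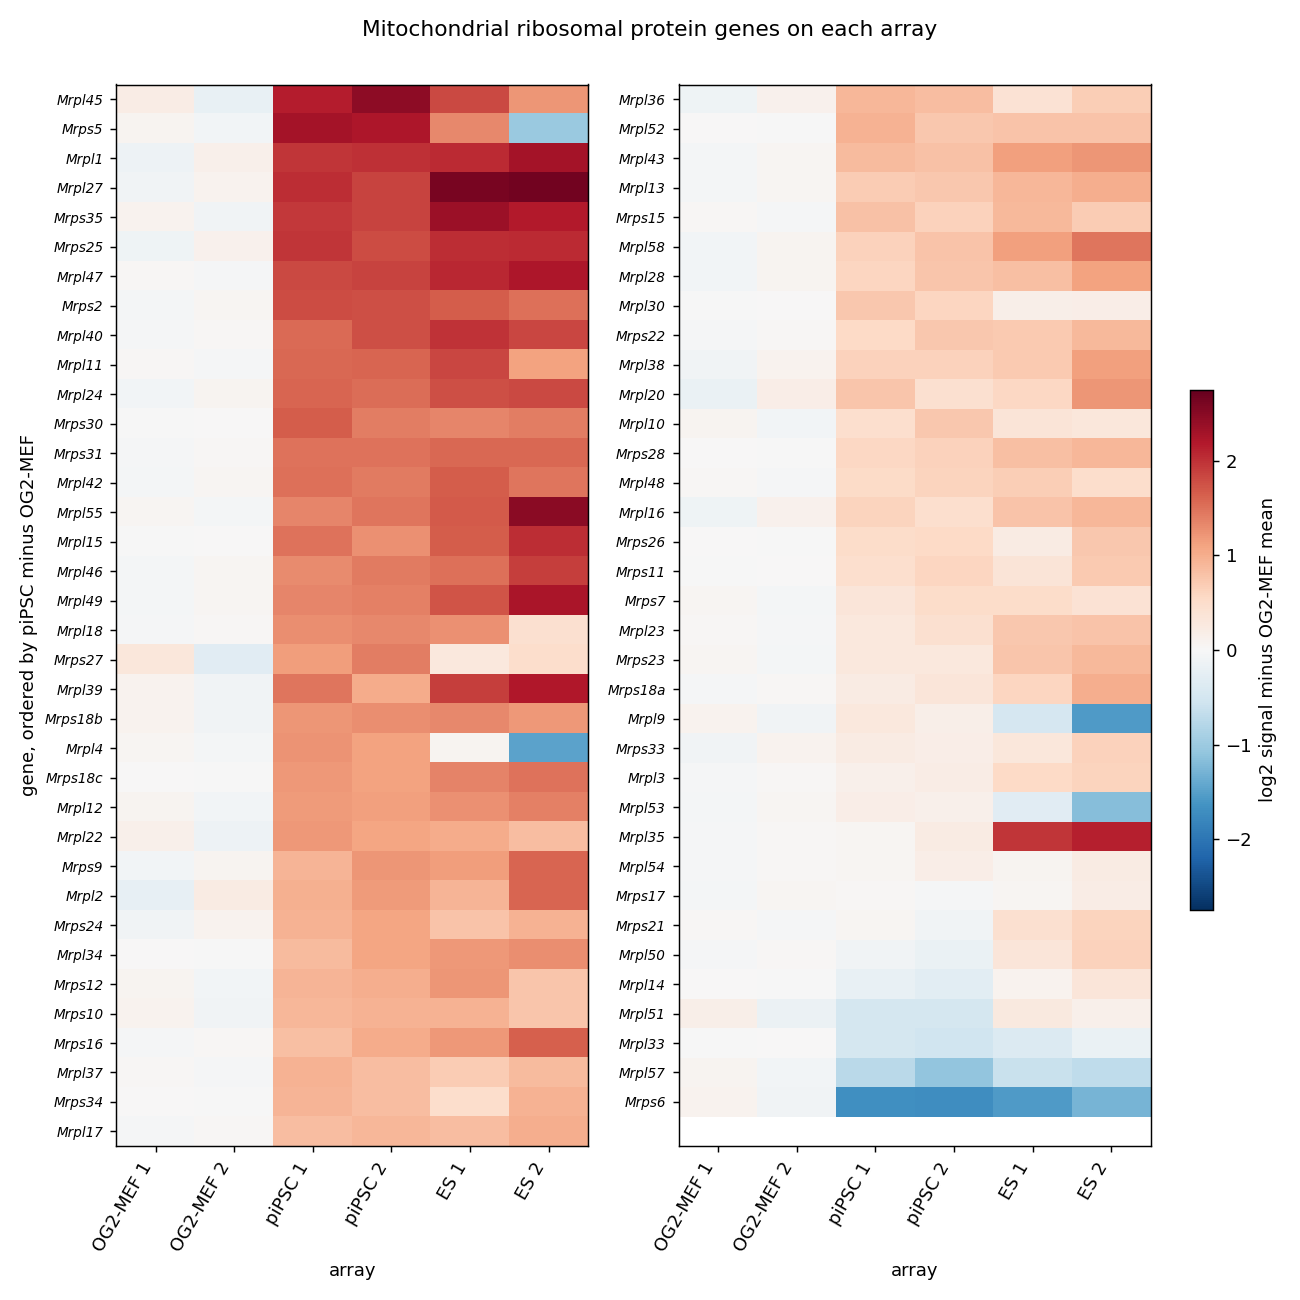
Log2 signal of the 71 tested genes on each of the 6 arrays, as the difference from the mean of the OG2-MEF arrays, in colour (red above, blue below). Genes run from the highest to the lowest difference between piPSC and OG2-MEF, in 2 columns. Red fills the piPSC and ES arrays for most genes, Mrps6 is blue on all 4 of them, and Mrpl35 is strongly red on the ES arrays alone.

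**Figure D2:**
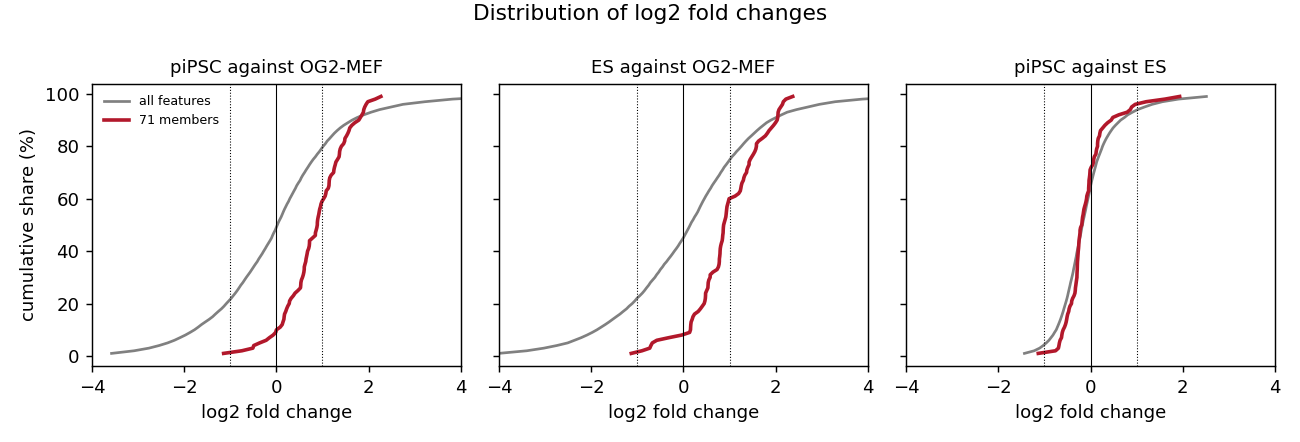
Cumulative share of features (percent) by log2 fold change, for the 71 members (red) and all 10748 features (grey), in each of the 3 comparisons, drawn from percentile 1 to 99. Dotted lines mark 2-fold. The members' curve has a median of 0.89 and 0.87 against OG2-MEF, where that of all features has 0.02 and 0.15, and the curves have medians of -0.19 and -0.18 for piPSC against ES.

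Cytosolic ribosomal proteins, which build the ribosome outside mitochondria, gave smaller differences on the same arrays. Of 58 tested genes, 4 were called higher and 0 lower in piPSC than in OG2-MEF (20% and 21.4% of all features). The median log2 fold change was 0.26. By limma's adjusted p alone, 15 were higher and 0 lower (33.6% and 34.5% of all features). In ES, 7 were called higher and 0 lower (25.1% and 21.6% of all features), with a median of 0.19. The adjusted p alone gave 21 higher and 2 lower in ES (40.1% and 33.1% of all features). Without ES replicate 2, 5 of 59 were higher and 0 lower (23.6% and 21.6% of all features), with a median of 0.18. The difference between the 2 ribosomes was not tested.

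Among large-subunit proteins with a bacterial counterpart, 10 of the 26 tested were called higher in piPSC and 0 lower (20% and 21.4% of all features), with a median log2 fold change of 0.88. By the adjusted p alone, 19 were higher and 1, Mrpl33, lower (33.6% and 34.5% of all features). In ES, 10 were called higher and 1 lower (25.1% and 21.6% of all features), with a median of 0.93. Without ES replicate 2 the ES median was 0.88. The member with the largest mean difference over both comparisons was Mrpl27, whose bacterial counterpart reaches into the centre where peptide bonds form. Its log2 signal was 8.33 and 8.52 on the OG2-MEF arrays, 10.45 and 10.27 on the piPSC arrays, and 11.04 and 11.09 on the ES arrays. The groups did not overlap. The difference from OG2-MEF was 1.94 in piPSC (SE 0.14, adjusted p = 4.4e-05) and 2.64 in ES (SE 0.14, adjusted p = 1.2e-05). Between piPSC and ES it was -0.70 (SE 0.14, adjusted p = 0.017), 1.62-fold and short of the 2-fold threshold.

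Mrpl1 belongs to the mobile stalk beside the site where spent transfer RNA leaves. It read 8.28 and 8.57 in OG2-MEF, 10.40 and 10.43 in piPSC, and 10.47 and 10.72 in ES. Every piPSC and ES array lay above both fibroblast arrays, by 1.99 in piPSC (SE 0.16, adjusted p = 6.8e-05) and 2.17 in ES (SE 0.16, adjusted p = 4.3e-05). Its other kept probe rose by 1.53 and 2.34. Mrpl47, a protein near the exit of the peptide tunnel, read 9.71 and 9.63 in OG2-MEF, 11.48 and 11.53 in piPSC, and 11.75 and 11.89 in ES. It rose by 1.84 and 2.14 (SE 0.12 for each, adjusted p = 3.6e-05 and 1.8e-05).

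Of the 3 proteins of the stalk that recruits translation factors, 2 were called higher in both groups. Mrpl12, the stalk protein itself, read 11.53 and 11.39 in OG2-MEF, 12.63 and 12.58 in piPSC, and 12.72 and 12.84 in ES, and was called higher in both (1.14 and 1.32, SE 0.13, adjusted p = 0.00031 and 0.00015). Under median scaling the piPSC difference of Mrpl12 was 0.86, short of 2-fold. Mrpl11, at the base of the stalk, read 9.22 and 9.17 in OG2-MEF, 10.78 and 10.80 in piPSC, and 11.05 and 10.30 in ES, and was also called higher in both (1.60 and 1.47, SE 0.24, adjusted p = 0.0012 and 0.0016). Mrpl10, which anchors Mrpl12, read 11.32 and 11.17 in OG2-MEF, 11.70 and 12.00 in piPSC, and 11.59 and 11.57 in ES. Its difference of 0.60 in piPSC (SE 0.15, adjusted p = 0.01) and of 0.33 in ES (adjusted p = 0.083) stayed under 2-fold. The probes of Mrpl10 disagreed: another kept probe differed by -0.06 in piPSC and 0.64 in ES. Mrpl17 read 11.58 and 11.64 in OG2-MEF, 12.47 and 12.53 in piPSC, and 12.47 and 12.61 in ES, differences of 0.89 and 0.93 that passed the adjusted p (0.0009 and 0.00065) but not 2-fold. For Mrpl33 the used probe lay lower in piPSC, with 12.93 and 12.96 in OG2-MEF, 12.47 and 12.40 in piPSC, and 12.57 and 12.77 in ES. The log2 fold change of Mrpl33 was -0.51 in piPSC (SE 0.13, adjusted p = 0.012) and -0.28 in ES (adjusted p = 0.095). A second kept probe of Mrpl33 gave -0.18 in piPSC (adjusted p = 0.32) and 0.16 in ES (adjusted p = 0.38).

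Large-subunit proteins specific to mitochondria include Mrps18a and Mrps30, which are named for the small subunit but sit in the large one. Of 19 tested, 7 were called higher in piPSC and 0 lower (20% and 21.4% of all features), with a median of 0.84. In ES, 9 were called higher and 0 lower (25.1% and 21.6% of all features), with a median of 0.92. The ES median was 0.78 without ES replicate 2. Mrpl45, which lies at the exit of the peptide tunnel where the ribosome meets the inner membrane, was not well above background on either OG2-MEF array. It read 4.91 and 4.50 there, 6.86 and 7.16 in piPSC, and 6.53 and 5.93 in ES. Against the lowest detected signal, the level was at least 3.99-fold higher in piPSC and at least 2.32-fold higher in ES. These bounds were not tested. The limma adjusted p-values (0.00027 and 0.0016) belong to log2 differences of 2.31 and 1.52, which use OG2-MEF values below background. Mrpl45 counts among the members called higher in both groups. Its probe was kept through piPSC and ES alone, so it could hardly have been called lower in them. A second probe of Mrpl45 was not above background on any array. Mrpl49 was called higher through a probe at 9.11 and 9.22 in OG2-MEF, 10.50 and 10.55 in piPSC, and 10.89 and 11.40 in ES (1.36 and 1.98, SE 0.19, adjusted p = 0.00082 and 0.00013). Under median scaling the piPSC difference of Mrpl49 was 0.97, just under 2-fold. Its 4 kept probes gave log2 fold changes of 1.14 to 1.75 in piPSC and of 1.47 to 1.98 in ES.

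Some members of this group were lower in piPSC by the adjusted p alone. Mrpl57 read 5.92 and 5.76 in OG2-MEF, 5.11 and 4.77 in piPSC, and 5.23 and 5.15 in ES, close to background, and was above background on 1 of 2 arrays in each pluripotent group, so that its differences are uncertain. Its log2 fold change was -0.91 in piPSC (SE 0.16, adjusted p = 0.0023) and -0.65 in ES (adjusted p = 0.0091). The probe was kept through OG2-MEF alone, so it could hardly have been called higher in piPSC or ES. Mrpl57 counts among the members lower by the adjusted p alone in both comparisons. Mrpl51 read 6.42 and 6.08 in OG2-MEF, 5.77 and 5.76 in piPSC, and 6.51 and 6.38 in ES. The direction for Mrpl51 rests on the choice of probe: the used probe gave -0.49 in piPSC (adjusted p = 0.029) while the others gave 0.64 and 0.03. Mrpl55, which has been placed in no group here, read 7.39 and 7.26 in OG2-MEF, 8.67 and 8.81 in piPSC, and 9.01 and 9.81 in ES. It rose by 1.41 in piPSC (SE 0.26, adjusted p = 0.0029) and by 2.08 in ES (adjusted p = 0.00045).

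Of 15 small-subunit proteins with a bacterial counterpart, 5 were called higher and 1 lower in piPSC (20% and 21.4% of all features), with a median log2 fold change of 0.92. In ES, 4 were called higher and 1 lower, with a median of 0.86. The share of these genes called higher in ES lay near that of all features (25.1%). Without ES replicate 2 the median was 0.88. Mrps6, from the platform of the small subunit, was called lower in both. It read 12.00 and 11.81 in OG2-MEF, 10.21 and 10.18 in piPSC, and 10.34 and 10.63 in ES. Both fibroblast arrays lay above all 4 others, and the log2 fold change was -1.70 in piPSC (SE 0.15, adjusted p = 0.00011) and -1.42 in ES (SE 0.15, adjusted p = 0.00022). Between piPSC and ES it was -0.29 (adjusted p = 0.19). It was measured by 1 probe. Mrps12, the counterpart of a bacterial protein at the site where codons are read, read 11.42 and 11.28 in OG2-MEF, 12.28 and 12.34 in piPSC, and 12.57 and 12.11 in ES. Its differences of 0.96 and 0.99 (SE 0.18, adjusted p = 0.0033 and 0.0025) passed the adjusted p and lay just under 2-fold. Mrps24, whose bacterial counterpart lies where messenger RNA enters, read 12.12 and 12.34 in OG2-MEF, 13.19 and 13.32 in piPSC, and 13.01 and 13.19 in ES. It was called higher in piPSC by 1.03 (SE 0.14, adjusted p = 0.00089), a call lost under median scaling (0.81), without piPSC replicate 2 (0.95) and without OG2-MEF replicate 1 (0.93), and differed by 0.87 in ES. For Mrps17 the OG2-MEF arrays overlapped those of both other groups, with 11.74 and 11.86 in OG2-MEF, 11.83 and 11.77 in piPSC and 11.85 and 12.00 in ES. Its difference in piPSC was 0.00, with a 95% interval from -0.31 to 0.31.

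Small-subunit proteins specific to mitochondria were called higher for 5 of 10 genes in piPSC (20% of all features) and 4 of 10 in ES (25.1%), and lower for 0 in either (21.4% and 21.6%). By the adjusted p alone 8 were higher (33.6% and 40.1% of all features) and 0 lower in each. The medians were 1.07 and 0.81. The ES median was 0.72 without ES replicate 2. Mrps35 read 9.53 and 9.32 in OG2-MEF, 11.37 and 11.29 in piPSC, and 11.77 and 11.60 in ES, with no overlap between fibroblasts and the others. It rose by 1.90 in piPSC (SE 0.14, adjusted p = 5.2e-05) and by 2.26 in ES (adjusted p = 2.3e-05). Mrps25 read 7.58 and 7.82 in OG2-MEF, 9.67 and 9.50 in piPSC, and 9.72 and 9.74 in ES. The used probe of Mrps25 rose by 1.89 and 2.03 (SE 0.14, adjusted p = 5.8e-05 and 3.8e-05), while its other 2 kept probes gave 0.52 and 0.54 in piPSC and 0.96 and 1.03 in ES. Mrps31 read 10.10 and 10.15 in OG2-MEF, 11.61 on each piPSC array and 11.71 on each ES array, and rose by 1.48 and 1.58 (SE 0.12, adjusted p = 6.7e-05 and 4.6e-05).

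The mammalian genome holds 3 homologues of bacterial S18, and their products occupy separate places: Mrps18c the bacterial site, Mrps18b elsewhere in the small subunit, and Mrps18a in the large subunit. Mrps18c read 10.73 on each OG2-MEF array, 11.92 and 11.83 in piPSC, and 12.09 and 12.22 in ES. It was called higher by 1.15 and 1.43 (SE 0.12, adjusted p = 0.00026 and 9.3e-05), with the piPSC call of Mrps18c lost under median scaling (0.80). Mrps18b read 11.36 and 11.19 in OG2-MEF, 12.48 and 12.55 in piPSC, and 12.59 and 12.46 in ES. It was called higher by 1.24 and 1.25 (SE 0.13, adjusted p = 0.00025 and 0.00022), but the piPSC call of Mrps18b was lost under median scaling, and a second probe of this gene gave -1.90 in ES. Mrps18a read 9.88 and 9.93 in OG2-MEF, 10.13 and 10.25 in piPSC, and 10.50 and 10.90 in ES. Its difference of 0.28 in piPSC did not pass (SE 0.16, adjusted p = 0.18, 95% interval from -0.12 to 0.68), and that of 0.79 in ES passed the adjusted p (0.0046) but not 2-fold. The difference between the homologues was not tested.

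**Figure D3:**
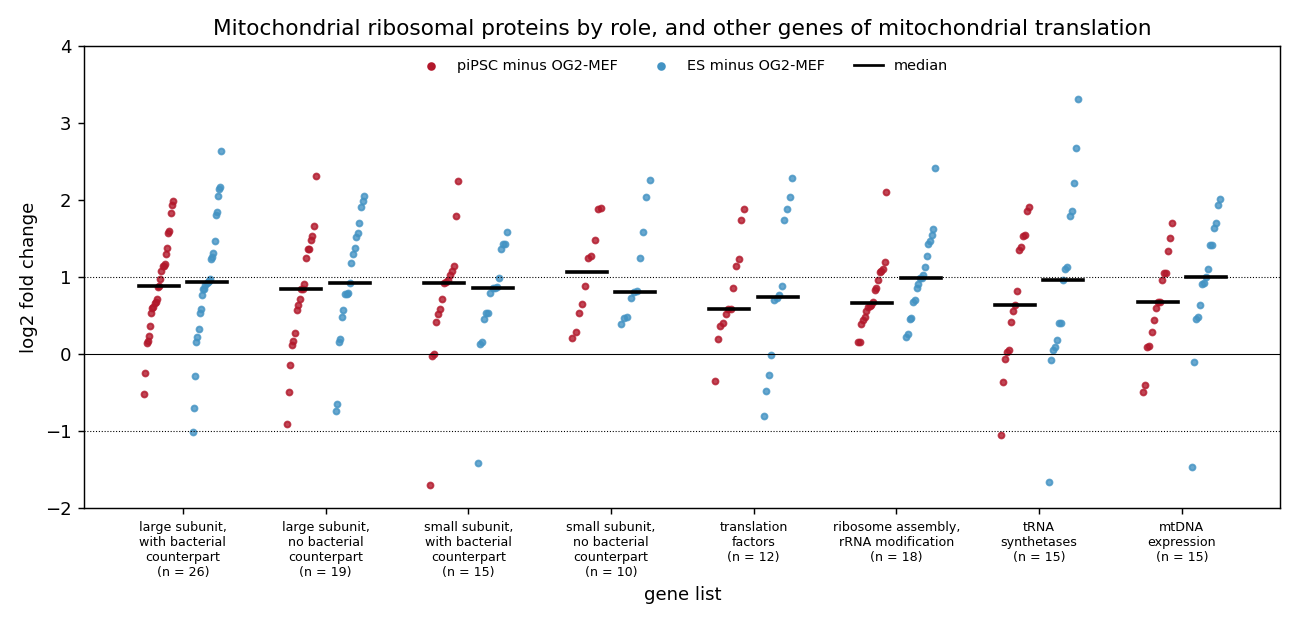
Log2 fold change of each tested gene against OG2-MEF (red for piPSC, blue for ES) in 4 groups of mitochondrial ribosomal proteins and 4 lists of other genes of mitochondrial gene expression, with the number of genes under each. Black bars are medians and dotted lines mark 2-fold. Every median lies above 0, between 0.59 and 1.07 in piPSC and between 0.75 and 1.00 in ES. Some genes were not above background in OG2-MEF. With these at their bounds, the piPSC median of translation factors was 0.55 and the ES median of tRNA synthetases 0.62.

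The comparison of piPSC with ES asks whether the induced cells reached the levels of embryonic stem cells. Of the 71 members 2 were called higher in piPSC (2.82%, against 4.32% of all features) and 1 lower (1.41% against 4.34%). By the adjusted p alone 4 were higher (8.7% of all features) and 9 lower (18.6%). The median log2 fold change was -0.19 for members and -0.18 for all features. For 58 members (81.7%, against 69.6% of all features) the 95% interval of the difference lay within 2-fold both ways. In 38 members both piPSC arrays lay below both ES arrays (47.1% of all features did), and in 12 above (22.3%). Against the piPSC mean, ES replicate 1 was more than 2-fold higher for 1 member (2.49% of features) and lower for 1 (3.77%), and ES replicate 2 was higher for 2 (8.17%) and lower for 5 (8.43%).

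Mrpl35, a small protein of the large subunit, had the clearest difference between the pluripotent groups. It read 6.27 and 6.43 in piPSC, 6.18 and 6.24 in OG2-MEF, and 8.18 and 8.34 in ES. The piPSC arrays lay beside the fibroblast arrays, and both ES arrays lay above all others. The log2 fold change of piPSC against ES was -1.91 (SE 0.13, adjusted p = 0.00096), that of ES against OG2-MEF was 2.05 (adjusted p = 2.8e-05), and that of piPSC against OG2-MEF was 0.14 (95% interval from -0.18 to 0.46, adjusted p = 0.39). The gene was measured by 1 probe, and the call between piPSC and ES held when each array was left out in turn.

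Mrpl4, which lines the peptide tunnel in bacteria, was called higher in piPSC than in ES. It read 10.70 and 10.57 in piPSC, 9.53 and 9.41 in OG2-MEF, and 9.54 and 7.99 in ES, so that the ES arrays differed from each other by more than the fibroblasts did from piPSC. The log2 fold change was 1.87 (SE 0.45, adjusted p = 0.031). ES replicate 1 lay 1.09 below the piPSC mean and ES replicate 2 lay 2.64 below it. Mrpl9, whose bacterial counterpart binds near the Mrpl1 stalk, read 10.12 and 9.99 in piPSC, 9.92 and 9.74 in OG2-MEF, and 9.36 and 8.27 in ES. It was called higher in piPSC than in ES (1.24, SE 0.33, adjusted p = 0.039) and lower in ES than in OG2-MEF (-1.01, SE 0.33, adjusted p = 0.032). Without ES replicate 2 both differences of Mrpl9 were under 2-fold, at 0.69 and -0.46. Mrpl4 and Mrpl9 were each measured by 1 probe, and for both the call against ES was lost when any piPSC or OG2-MEF array was left out.

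Between the 2 ES arrays, 3 of 71 members were more than 2-fold lower on replicate 2 (4.23%, against 4.61% of all features) and 0 were higher (0.251% of all features). Over every kept probe, 8 of 98 were lower (8.16% against 6.55%) and 0 higher (0.282%). Mrps5, at the channel through which messenger RNA enters the small subunit, had the largest gap between the ES arrays among the used probes. It read 9.74 and 9.57 in OG2-MEF, 11.93 and 11.87 in piPSC, and 10.98 and 8.63 in ES. It was called higher in piPSC than in OG2-MEF (2.25, SE 0.67, adjusted p = 0.023), and the wide SE comes from the ES arrays, since 1 spread is fitted for all groups. That call was lost without any 1 of the piPSC or OG2-MEF arrays. A second probe of Mrps5 did not show the gap: it read 7.45 and 7.62 in OG2-MEF, 9.90 and 10.00 in piPSC, and 10.39 and 10.25 in ES, with log2 fold changes of 2.42 in piPSC and 2.79 in ES. Mrpl53 came next among the used probes after Mrps5, Mrpl4 and Mrpl9, with 11.71 and 11.81 in OG2-MEF, 11.96 and 11.91 in piPSC, and 11.46 and 10.60 in ES. Its log2 fold change of ES against OG2-MEF was -0.74 (SE 0.27, adjusted p = 0.044), lower by the adjusted p alone. Without ES replicate 2 this difference of Mrpl53 was -0.31.

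Probes of the same gene disagreed most on the ES arrays. Over the 21 genes with several kept probes, the median range of log2 fold changes between probes of a gene was 0.24 for piPSC against OG2-MEF, 0.63 for ES against OG2-MEF and 0.83 for piPSC against ES. The sign differed between probes in 3, 5 and 15 of these genes, and the range exceeded 1 in 3, 7 and 7. The counts of signs cannot be compared between comparisons. For piPSC against ES the members' median was -0.19, so small gaps turn the sign, as for Mrps7 (-0.03 and 0.11). The widest was Mrpl3, a core protein of the large subunit. Its used probe read 10.82 and 10.86 in OG2-MEF, 10.97 and 11.05 in piPSC, and 11.39 and 11.45 in ES. Its other probe read 10.26 and 10.09, then 10.13 and 9.97, then 7.86 and 4.58, and on ES replicate 2 it was not above background. The log2 fold change of ES against OG2-MEF was thus 0.58 by one probe (adjusted p = 0.0044) and -3.96 by the other. For Mrps18b the second probe read 9.57 and 9.38 in OG2-MEF, 10.58 and 10.39 in piPSC, and 9.38 and 5.77 in ES.

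Smaller splits of this kind appeared elsewhere. A second probe of Mrpl43 gave -0.43 in ES where the used one gave 1.18. One of the other 2 kept probes of Mrps31 gave 0.42 in ES and 1.66 in piPSC. For Mrpl18 the order was turned: the used probe gave 0.85 in ES and 1.30 in piPSC, and the other 2.18 and 1.39. Mrpl48 was not called in piPSC by its used probe (0.57, SE 0.13, adjusted p = 0.0085), but its other 2 kept probes gave 1.71 and 1.76. For Mrps11 the used probe gave 0.54 in ES and the other -0.42. The probes of Mrps7, Mrps10, Mrps26, Mrps33 and Mrpl47 differed in sign for piPSC against ES only, with used values between -0.31 and 0.07. What these probes match was not examined, and their part in the ES results was not tested.

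**Figure D4:**
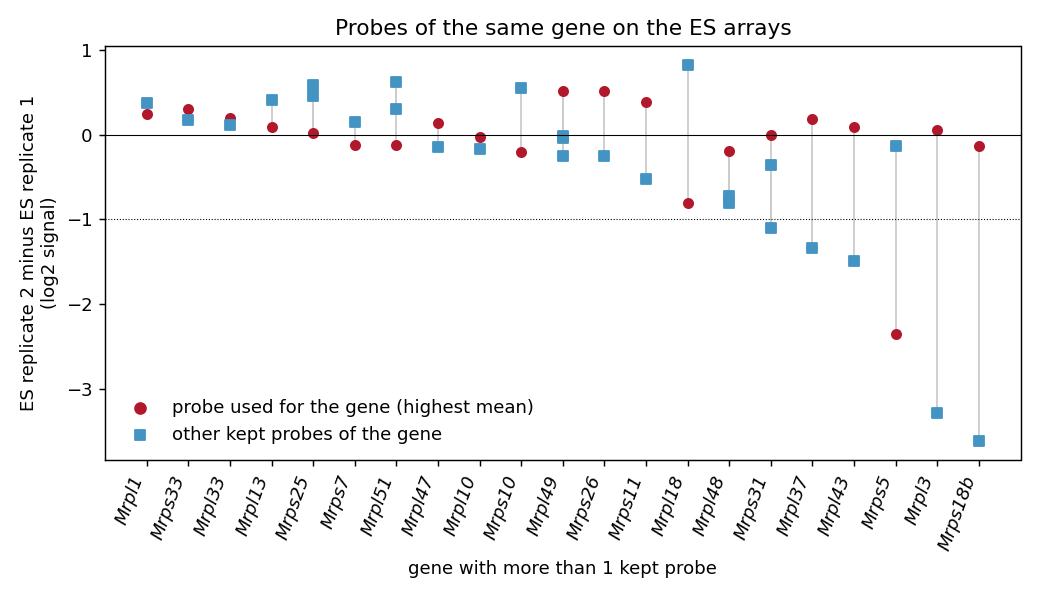
Difference in log2 signal between ES replicate 2 and ES replicate 1 for every kept probe of the 21 genes with several, where red circles are the probe used for the gene and blue squares its other probes. The dotted line marks a 2-fold decrease. For Mrps18b and Mrpl3 the blue square lies at -3.62 and -3.28 while the red circle lies near 0, and for Mrps5 the red circle lies at -2.35.

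Genes that act with the mitochondrial ribosome were followed as lists. Listed genes not above background in OG2-MEF were kept through pluripotent groups alone, and could hardly have been called lower there. Values without ES replicate 2, an alternative chosen after seeing the data, follow each list. Of 12 tested translation factors, 4 were called higher in piPSC and 0 lower (median 0.59, or 0.55 with Mtif2, not above background in OG2-MEF, at its bound), and 4 and 0 in ES (median 0.75). Gfm2, which helps to split spent ribosomes, read 7.74 and 7.77 in OG2-MEF, 9.68 and 9.59 in piPSC, and 9.64 and 9.63 in ES, a rise of 1.88 in both (SE 0.12, adjusted p = 2.7e-05 and 2.4e-05). The ES counts of this list were again 4 and 0 without ES replicate 2 (median 0.68), and Gfm2 differed by 1.86. The release factor gene Mtrf1 rose by 1.74 and 2.29 (SE 0.21, adjusted p = 0.00045 and 0.00012), and the initiation factor gene Mtif3 by 1.24 and 2.04 (SE 0.18, adjusted p = 0.00097 and 9.3e-05). In ES without replicate 2, Mtrf1 differed by 1.99 and Mtif3 by 1.81. Of 18 genes of ribosome assembly and rRNA modification, 5 were called higher in piPSC and 8 in ES, with 0 lower in either and medians of 0.66 and 0.99. Tfb1m, which methylates the small ribosomal RNA, read 6.32 and 6.57 in OG2-MEF, 8.48 and 8.63 in piPSC, and 8.64 and 9.08 in ES, a rise of 2.11 and 2.41 (SE 0.19, adjusted p = 0.00012 and 5.9e-05). Mettl17 rose by 1.19 and 1.43, and Mterf4 by 1.11 and 1.54. Without ES replicate 2, 7 genes of this list were called higher in ES and 0 lower (median 0.94), with differences of 2.17 for Tfb1m, 1.43 for Mettl17 and 1.51 for Mterf4.

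Among 15 tested aminoacyl-tRNA synthetases and amidotransferase subunits of mitochondria, 6 were called higher and 1 lower in piPSC (median 0.64), and 7 higher and 1 lower in ES. The ES median was 0.97, or 0.62 with genes not above background in OG2-MEF at their bound. Fars2, which charges phenylalanine tRNA, rose by 1.91 and 1.86 (SE 0.15, adjusted p = 6.2e-05 in both). Gatb, a subunit of the glutamine amidotransferase, rose by 1.86 and 2.67, and Ears2, for glutamate, by 1.55 and 2.23. The gene called lower in piPSC was Wars2, for tryptophan, at -1.04 (SE 0.26, adjusted p = 0.011), and in ES it was Lars2, for leucine, at -1.66 (SE 0.16, adjusted p = 0.00015). The ES counts of this list were again 7 and 1 without ES replicate 2, with differences of 1.80 for Fars2, 2.60 for Gatb, 2.06 for Ears2 and -1.84 for Lars2. Of 15 genes that copy, transcribe or process mitochondrial DNA and RNA, 5 were called higher in piPSC (median 0.68) and 7 in ES (median 1.00), with 0 lower in either. Tfam, which packs mitochondrial DNA and starts its transcription, read 8.995 and 9.034 in OG2-MEF, 10.73 and 10.70 in piPSC, and 11.12 and 10.94 in ES, a rise of 1.70 and 2.02 (SE 0.13, adjusted p = 5.6e-05 and 2.5e-05). The elongation factor gene Tefm rose by 1.51 and 1.94, and Ssbp1, which coats single-stranded mitochondrial DNA, by 1.33 and 1.71. Without ES replicate 2, 8 genes of this list were called higher in ES and 0 lower (median 1.00), with differences of 2.08 for Tfam, 1.84 for Tefm and 1.57 for Ssbp1.

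Ribosomal proteins of mitochondria that carry other symbols were tested for 3 genes. None was called in piPSC at 2-fold, though Dap3 (0.61, adjusted p = 0.013) and Chchd1 (0.75, adjusted p = 0.0027) passed the adjusted p. Ptcd3, a small-subunit protein, read 8.90 and 8.81 in OG2-MEF, 8.70 and 8.65 in piPSC, and 10.17 and 10.52 in ES. As with Mrpl35, both ES arrays lay above all others: ES against OG2-MEF gave 1.49 (SE 0.16, adjusted p = 0.0002), and piPSC against ES gave -1.67 (adjusted p = 0.0024). The counts of these lists stand against the same background as those of the members, 20% of all features called higher in piPSC and 25.1% in ES (23.6% without ES replicate 2), and 21.4% and 21.6% called lower.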

How the data were processed

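RNA was labelled with biotin as cRNA and hybridised to Illumina bead arrays, per the labels' protocols. The deposited table holds raw intensity on a linear scale per probe and array and, per the file headers, a detection p-value beside it. The authors' deposited matrix holds log2 values, which recomputation found to be quantile-normalized intensities (within 0.0012); it served as an alternative. Scanner software and any earlier background subtraction are not given in the sources used here.

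Intensities were background-corrected and quantile-normalized with neqc (offset 16) in limma 3.58.1 (R 4.3.3). Probes were kept where both arrays of some group had a detection p under 0.05. A gene was represented by its probe with the highest mean, which left 10748 features (9900 named genes and 848 probes without a symbol). Groups were compared with limma in 1 fit of 3 group means (3 residual degrees of freedom), with Benjamini-Hochberg adjustment over all features of a comparison. Adjusted p-values are limma's, and values of a gene's other probes come from a fit over all 14533 kept probes. Where a probe was not above background on either array of a group, "at least N-fold" sets the brighter group's mean against, per array, the probe's own signal or the lowest detected one, whichever was higher. On simulated data for piPSC against OG2-MEF with 10748 features, 95% of true 1.5 log2 changes and 98% of 2 log2 changes were called, with 4 false calls among 10548 unchanged features. The simulated noise was independent and normal, with the fit's own spread for each gene in all groups. Far fewer features were changed than were called in the data. In the data the SD between arrays was 0.20 in piPSC, 0.19 in OG2-MEF and 0.57 in ES. The simulation therefore does not give the error rates of these data. The number of arrays limits the precision.

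Symbols came from the array annotation and, for other genes, were updated through a RefSeq gene table. Members and lists were chosen with earlier results of these data known. Named were, per comparison, the 6 largest calls each way, the 4 members with the largest ES gap, the 4 highest and 4 lowest signals, genes whose probes differed in sign or by over 1, Mrpl10, Mrpl11, Mrpl12, Mrps12 and the S18 homologues, and 3 called genes per list. Mrps17, Mrpl14, Lars2, Mtif2, Dap3, Chchd1 and Ptcd3 were named after their values were seen. Replicate numbers were checked for pairing: deviations correlated at 0.06, 0.01 and 0.25 between groups, so they were not taken as pairs.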

Additional observations from a re-analysis of the deposited data

Results flagged for a closer look

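Of the members, 3 passed both the adjusted p and 2-fold in a direct test of piPSC against ES. Of these, 2 were higher and 1 lower (4.32% and 4.34% of all features). By the adjusted p alone 4 were higher and 9 lower (8.7% and 18.6% of all features). Mrps5 also differed by more than 2-fold (2.10) but did not pass limma's adjusted p (0.061). Mrpl35 had a log2 fold change of -1.91, with both ES arrays above all others. Mrpl4 had 1.87 and Mrpl9 had 1.24, and both genes lay lower on ES replicate 2 than on ES replicate 1. Their calls were lost when any piPSC or OG2-MEF array was left out, and that of Mrpl9 also without ES replicate 2 (0.69).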

How the results depend on the processing

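Over 18 alternatives, 121 counts and medians of the members stayed within the limits set for them and 35 moved. The median kept its sign in each comparison. For piPSC against ES the balance of calls depended on the setting, with 2 higher and 1 lower as reported but 4 and 9 without a fold threshold. The shares of all features moved likewise, from 4.32% higher and 4.34% lower to 8.7% and 18.6%. In the setting with every kept probe, a gene counted as called where any of its probes passed, so genes with several probes kept a call more easily. Of the called members, 16 of 29 in piPSC against OG2-MEF, 25 of 30 in ES against OG2-MEF and 1 of 3 in piPSC against ES (Mrpl35) were called under all 16 alternatives that kept the fold threshold. For the rest the cause was not tested.

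For piPSC against OG2-MEF, median scaling gave 18 higher and 2 lower (15.6% and 26.7% of all features), with a median of 0.53. It lost the calls of 10 members (Mrpl2, Mrpl12, Mrpl18, Mrpl22, Mrpl49, Mrps9, Mrps18b, Mrps18c, Mrps24 and Mrps27). Without a fold threshold there were 53 higher and 4 lower (33.6% and 34.5% of all features). At 1.5-fold there were 47 and 2 (29.5% and 30.9%), since a lower threshold admits more genes. Leaving out each array gave medians of 0.85 to 0.89 for members and -0.006 to 0.046 for all features. For ES against OG2-MEF, median scaling gave a median of 0.69. Without a fold threshold there were 56 higher and 4 lower (40.1% and 33.1% of all features), and at 1.5-fold 48 and 4 (35.6% and 29.7%). The authors' matrix, an offset of 50 and no detection filter each gave 1 lower (18.6%, 17.4% and 12.3% of all features). Here leaving out each array gave medians of 0.85 to 0.96 for members and 0.12 to 0.23 for all features. For piPSC against ES, the count higher was 1 under median scaling and 0 without the detection filter (4.35% and 1.84% of all features). It was 5 over every kept probe (7% of kept probes) and 4 without a fold threshold (8.7% of all features). The count lower was 9 without a fold threshold and 6 at 1.5-fold (18.6% and 14.8% of all features). When each array was left out, the median lay between -0.25 and -0.13 for members and between -0.25 and -0.12 for all features. With the replicate block, 29 and 1 members were called in piPSC against OG2-MEF (20.1% and 21.5% of all features). In ES against OG2-MEF 28 and 2 were called (25.1% and 21.7%), and in piPSC against ES 2 and 1 (4.46% and 4.36%). The block thus changed no count by over 1.5 times.

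Where every kept probe or the mean over probes stood for the gene, the direction turned for Mrpl51 in piPSC against OG2-MEF (0.0332 and 0.063), for Mrpl3 in ES against OG2-MEF (-1.69 in both) and in piPSC against ES (1.71 in both), and for Mrps18b in ES against OG2-MEF (-0.33 in both). Of the other values of named members, 979 kept their side of the threshold, 38 lost it and 15 gained it. Dim members such as Mrpl45 and Mrpl57 lie near background, where the offset decides how large a fold can appear.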

Other observations

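Regulators of mitochondrial gene expression were followed beside the members. Gabpa, an ETS factor known to bind promoters of respiratory genes, read 7.14 and 7.21 in OG2-MEF, 8.16 and 8.36 in piPSC, and 8.82 and 8.70 in ES. It rose by 1.09 in piPSC (SE 0.13, adjusted p = 0.00048) and by 1.59 in ES (adjusted p = 8.2e-05). Ppargc1b, a coactivator of mitochondrial biogenesis, was not above background in OG2-MEF and was at least 2.49-fold higher in piPSC and at least 6.42-fold higher in ES. Its probe was kept through pluripotent groups alone, so it could hardly have been called lower in them. It counts among the regulators called higher in both groups. Without ES replicate 2 its difference in ES was 2.57, which uses OG2-MEF values below background. Nrf1 read 8.90 and 9.33 in OG2-MEF, 9.07 and 9.27 in piPSC, and 9.43 and 9.48 in ES, with differences of 0.06 and 0.34 that did not pass (adjusted p = 0.79 and 0.12). Myc read 7.71 and 7.53 in OG2-MEF, 6.86 and 7.33 in piPSC, and 5.91 and 4.50 in ES, where it was not above background on replicate 2. It was called lower in ES (-2.41, SE 0.44, adjusted p = 0.0025), a value that includes this dim array, and differed by -1.71 without it (adjusted p = 2.8e-05). In piPSC it was not called (-0.52, adjusted p = 0.32). Of the 6 regulators tested, 2 were called higher in piPSC and 0 lower (20% and 21.4% of all features). In ES, 2 were called higher and 1 lower (25.1% and 21.6% of all features). The ES counts were the same without ES replicate 2 (23.6% and 21.6% of all features). Yy1, Ppargc1a and Gabpb2 were on the array but not kept and so not tested, and no probe carried the symbol Pprc1.

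The ETS core was found in the windows of 6 of 26 members called higher in piPSC against OG2-MEF (23.1%) and of 19 of 36 tested members that were not called (52.8%). These shares are a description of letters in fixed windows. The NRF1 motif was found for 4 of 26 (15.4%) and 7 of 36 (19.4%).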
